A study of Homo sapiens with 18 samples.

Results

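The nuclear genes for subunits of the mitochondrial respiratory chain were followed through 3 human colorectal cancer cell lines, SW480, LS174T and HCT116, each exposed for 16 hours to 50 nM calcitriol or to its ethanol vehicle. Members were chosen by gene symbol alone: NDUFA, NDUFB, NDUFC, NDUFS or NDUFV and a number for complex I, SDHA to SDHD for complex II, UQCR for complex III, and COX4 to COX8 for complex IV. Assembly factors named NDUFAF and pseudogenes were left out. Of 63 matching genes on the array, 58 passed a filter that asked for a detection p under 0.05 on at least 3 of the 18 arrays, against 13712 genes that passed in the whole series. They comprise 35 genes of complex I, 3 of complex II, 8 of complex III and 12 of complex IV. A gene with several passing probes was represented by the probe with the highest mean.

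There were 3 arrays in each of the 6 groups. SW480 came with calcitriol and with ethanol, as did LS174T and HCT116, and no other agent or genetic change separated the groups within a line. Nothing in the labels tells whether the 3 replicates of a group grew as separate cultures. The p-values therefore reflect the spread among these arrays alone, which could be technical. Every level below is a quantile-normalized log2 probe intensity, and a difference between levels is a log2 difference of group means, so that 1 is a 2-fold change. A gene was called where limma's moderated test gave an adjusted p (Benjamini-Hochberg, over all genes tested) under 0.05.

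The respiratory chain carries electrons from NADH and succinate through the inner mitochondrial membrane to oxygen and pumps protons as it does so. Complex I oxidises NADH, complex II oxidises succinate and is also an enzyme of the citric acid cycle, complex III passes electrons from ubiquinol to cytochrome c, and complex IV, cytochrome c oxidase, hands them to oxygen. Complexes I, III and IV combine subunits encoded in the nucleus with subunits encoded in mitochondrial DNA. Calcitriol, the hormonal form of vitamin D, acts through the vitamin D receptor, a transcription factor of the nucleus.

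The members were mostly bright. The median member lay at the 95.5th percentile of mean level over the 13712 genes, and 49 of the 58 lay above the 75th percentile. On all 18 arrays 51 members were detected. The others were NDUFC2 on 17 arrays, NDUFA5 and NDUFB1 on 16, NDUFS1 on 15, NDUFB4 on 7, and COX6B2 and NDUFS6 on 3 each, just inside the filter. The 5 genes outside it were COX4I2, COX6A2, COX7A1, COX7B2 and COX8C, isoforms of complex IV subunits that are known from lung, heart and skeletal muscle or testis. SDHB and UQCRFS1 were not analysed here. None of the 13 subunits encoded in mitochondrial DNA was measured. NDUFA4, long counted in complex I and now placed in complex IV, is listed under its newer symbol COXFA4 and so fell outside the naming rule.

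Between 19295 and 21028 probes were detected per array, 40.8 to 44.4% of those on it, and replicates of a group correlated at 0.991 to 0.994 over the passing probes. Of 10 colorectal epithelial markers, 10 were detected on all LS174T ethanol arrays and 7 each on all SW480 and all HCT116 ethanol arrays. Their summed linear level was 12774 to 14474 in SW480, 44350 to 48391 in LS174T and 27362 to 29290 in HCT116 with ethanol. Of 12 markers of other cell types, 5 were measured, with sums of 1297 to 1624, 474 to 569 and 422 to 449 in the same order of lines. These sums move with cell line, as do the subunit differences below, and their part in them was not tested. In such bulk RNA, fewer cells with a transcript and less of it per cell cannot be told apart.

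Promoter sequence is shown for 4 of the members whose level differed at least 2-fold between lines: SDHA, the flavoprotein that oxidises succinate, and NDUFA9, NDUFA7 and NDUFS4, accessory subunits of complex I. Each run is the 250 bases before the gene's start, 5′ to 3′ on the gene's strand, taken from RefSeq on GRCh38.p14. They lie at chr5:218070-218319 on the plus strand (SDHA), chr12:4648864-4649113 on the plus strand (NDUFA9), chr19:8321376-8321625 on the minus strand (NDUFA7) and chr5:53560389-53560638 on the plus strand (NDUFS4). Capitals mark GCGC followed by any base and TGCGC, the core sequence recognised by NRF1, a transcription factor of many nuclear genes for mitochondrial proteins, or its reverse complement.
SDHA: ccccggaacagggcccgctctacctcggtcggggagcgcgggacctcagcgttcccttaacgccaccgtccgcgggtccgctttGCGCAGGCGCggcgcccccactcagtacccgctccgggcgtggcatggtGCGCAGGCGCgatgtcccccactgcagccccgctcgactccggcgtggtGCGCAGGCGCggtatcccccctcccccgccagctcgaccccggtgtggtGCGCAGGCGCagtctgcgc
NDUFA9: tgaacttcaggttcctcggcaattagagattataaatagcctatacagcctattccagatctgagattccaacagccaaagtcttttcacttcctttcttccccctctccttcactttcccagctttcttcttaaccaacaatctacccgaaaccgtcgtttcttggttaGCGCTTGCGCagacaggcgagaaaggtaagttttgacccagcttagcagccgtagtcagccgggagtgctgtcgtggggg
NDUFA7: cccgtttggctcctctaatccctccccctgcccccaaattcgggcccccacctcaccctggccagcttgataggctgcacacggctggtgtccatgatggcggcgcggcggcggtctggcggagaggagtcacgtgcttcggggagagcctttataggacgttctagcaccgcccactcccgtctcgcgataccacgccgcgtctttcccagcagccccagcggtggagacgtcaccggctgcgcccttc
NDUFS4: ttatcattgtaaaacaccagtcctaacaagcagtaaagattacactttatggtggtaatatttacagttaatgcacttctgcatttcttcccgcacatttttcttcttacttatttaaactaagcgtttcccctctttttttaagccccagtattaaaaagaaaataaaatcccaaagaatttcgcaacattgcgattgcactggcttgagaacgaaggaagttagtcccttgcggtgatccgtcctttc
The SDHA stretch held 4 matches and the NDUFA9 stretch 1, and those of NDUFA7 and NDUFS4 held none.

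Motifs were counted in windows of 300 bases, from 250 before to 50 after the start, which were at hand for 50 of the 58 members. Both strands were searched for the NRF1 core, for CCGGAAG, a core of ETS family factors, and for AAGATGGCG, a core of YY1. The NRF1 core was found for 11 members (22%, against 6.98% of all 27305 genes with a window), the ETS core for 14 (28.0% against 12.2%) and the YY1 core for 7 (14.0% against 2.14%). At least 1 of the 3 was present for 28 members (56.0% against 19.0%). The 27305 genes were not limited to the 13712 tested here, whereas the members all passed the detection filter, so the shares compare unlike sets. The NRF1 core lay in 6 of 31 complex I windows, 2 of 2 of complex II, 3 of 6 of complex III and 0 of 11 of complex IV. A match describes the sequence and is not evidence that a factor bound there.

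Calcitriol changed none of the subunit genes by limma's test. In SW480 0 of 58 members passed, where 2.46% of all genes were called, in LS174T 0 of 58, against 6.05%, and in HCT116 0 of 58, against 0.0729%. At an unadjusted p under 0.05 there were 3 members in each line (5.17%). By that rule the shares of all genes were 16.5% in SW480, 18.6% in LS174T and 10.8% in HCT116. Averaged over the lines, 0 members passed, against 2.73% of all genes. At an unadjusted p under 0.05 there were 2 members (3.45%, against 14.7% of all genes). The F test of whether the response differed among lines called 0 members too, against 5.55% of all genes. At an unadjusted p under 0.05 it gave 7 members (12.1%, against 22.2% of all genes).

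The intervals of these differences were narrow for most members. The 95% confidence interval stayed within a 1.5-fold change either way for 53 members in SW480 (91.4%, against 75.1% of all genes), 53 in LS174T (91.4% against 74.0%) and 51 in HCT116 (87.9% against 79.5%). For 50 members it did so in every one of the 3 lines. The 8 exceptions were COX6B2, NDUFA5, NDUFB1, NDUFB4, NDUFC2, NDUFS1, NDUFV3 and UQCR11. These intervals are those of the chosen probe, and 9 members had several passing probes. In SW480 the other UQCR10 probes differed by 0.51 and 0.48, against 0.07 on the chosen one. Other UQCRB probes, both dimmer, differed there by 0.30 and 0.62, against -0.10. In NDUFB3 the probes were closer (0.03 against -0.01). The median difference over the members was 0.02 in SW480, -0.05 in LS174T and -0.02 in HCT116, beside medians over all genes of -0.01, -0.02 and 0.00.

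**Figure D1:**
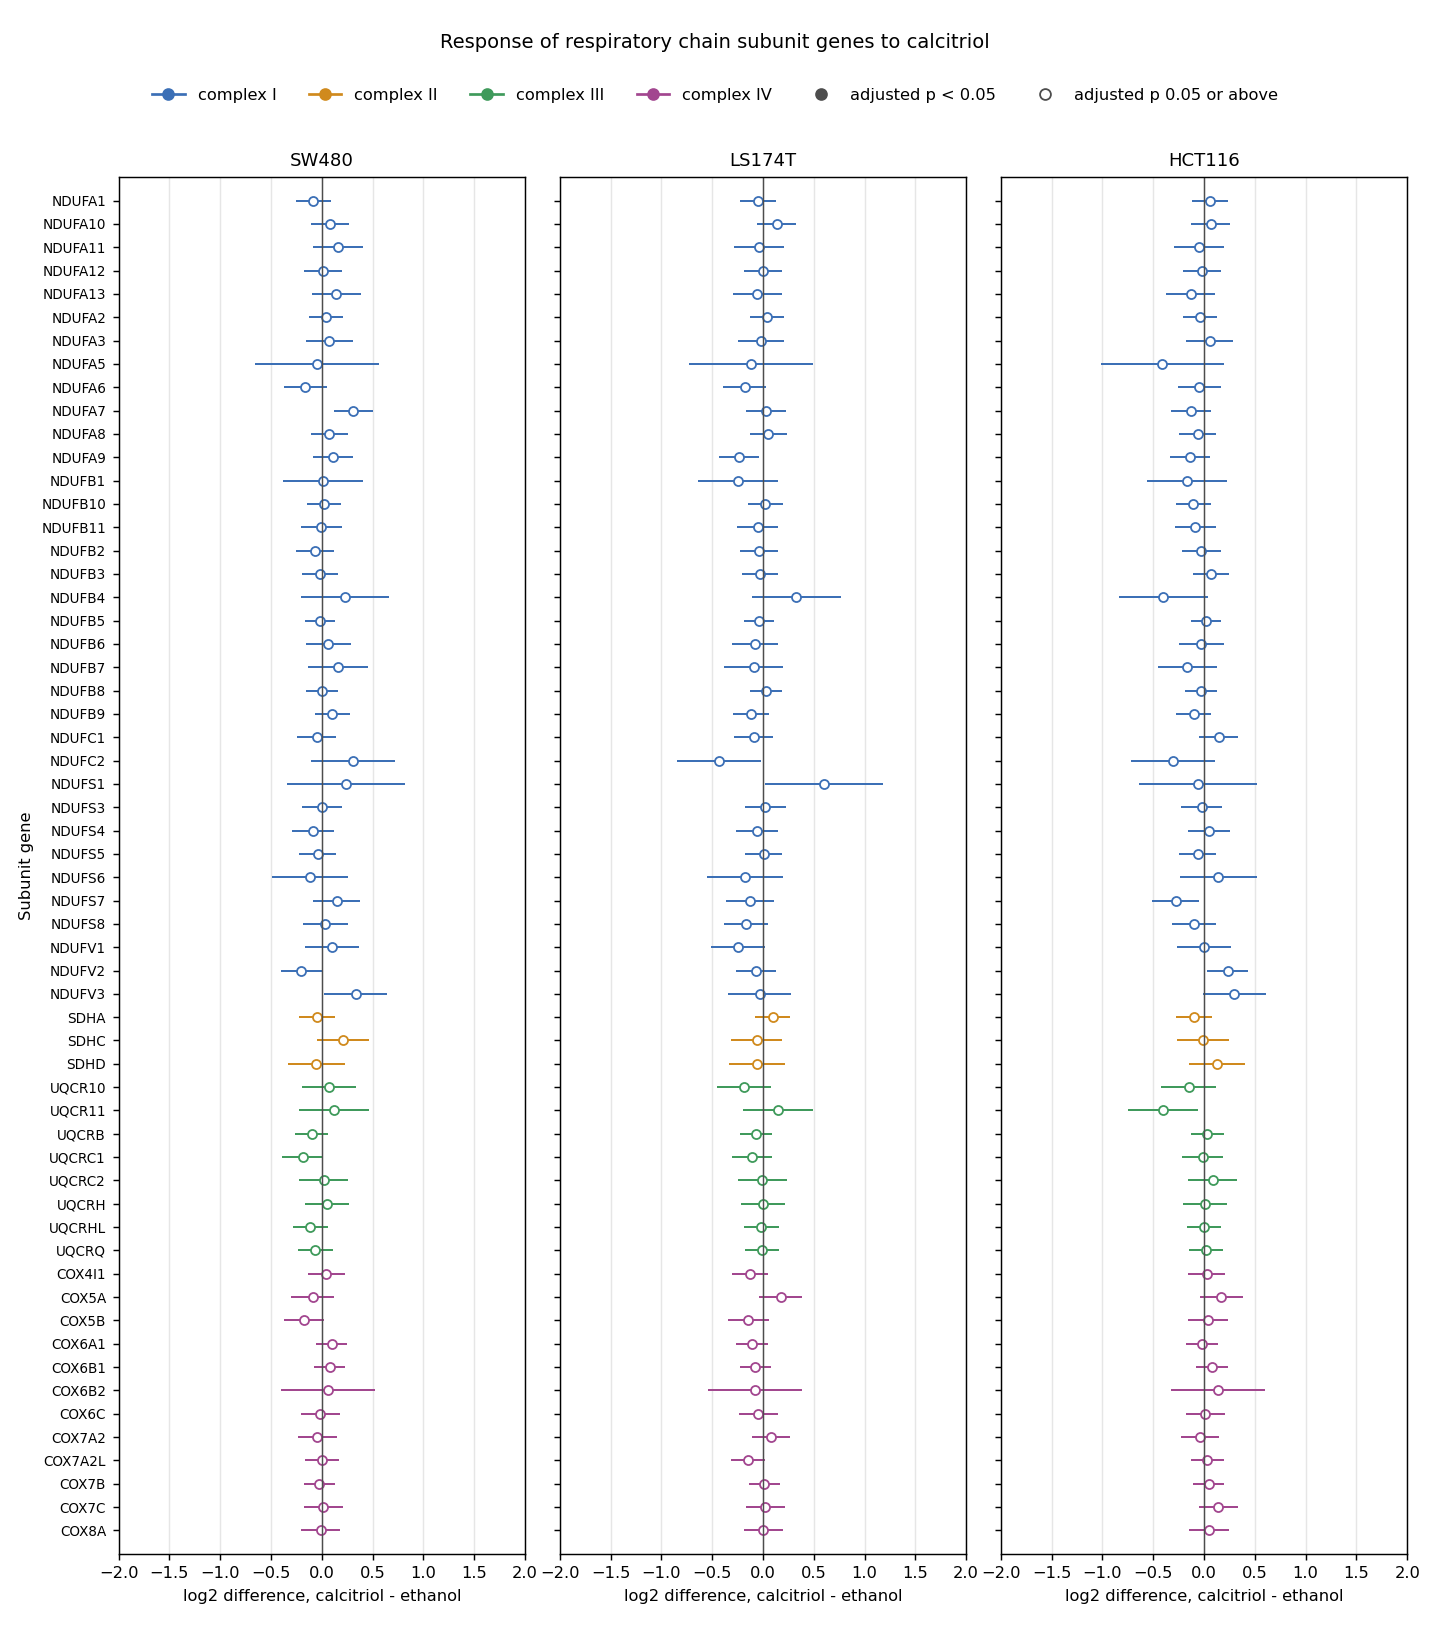
Log2 difference of calcitriol minus ethanol for each of the 58 subunit genes (rows, grouped and coloured by complex) in SW480, LS174T and HCT116, with 95% confidence intervals, n = 3 arrays per group. All points are open because 0 members had an adjusted p under 0.05, and most intervals straddle 0 and lie inside a 1.5-fold change.

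Complex by complex the responses were small. Complex I members had medians of 0.04 in SW480, -0.05 in LS174T and -0.05 in HCT116, and complex II members -0.05, -0.06 and -0.01. For complex III the medians were -0.02, -0.01 and 0.00, and for complex IV -0.01, -0.06 and 0.04. The 12 complex IV members ranged from -0.17 to 0.10 in SW480, -0.15 to 0.17 in LS174T and -0.04 to 0.17 in HCT116.

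The member nearest to the threshold was NDUFA7, an accessory subunit of the matrix arm of complex I. It read 9.65, 9.75 and 9.54 in SW480 with calcitriol, against 9.40, 9.21 and 9.40 with ethanol, a difference of 0.31 (adjusted p = 0.0738). The calcitriol arrays all lay above the ethanol arrays. In LS174T the levels were 10.32, 10.39 and 10.57 with calcitriol, against 10.40, 10.37 and 10.41 with ethanol, and the groups overlapped. HCT116 had 9.55, 9.49 and 9.68 with calcitriol, against 9.71, 9.64 and 9.75 with ethanol, which also overlapped. Its SW480 difference passed with no background correction (adjusted p = 0.0416), with only probes detected on all 18 arrays (0.0464) and with a trended, robust variance prior (0.0376). The F test among lines gave it an adjusted p of 0.0909.

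NDUFV2, an iron-sulfur core subunit of the NADH-oxidising module, had differences of opposite sign in 2 lines. SW480 read 12.40, 12.38 and 12.44 with calcitriol, against 12.52, 12.78 and 12.52 with ethanol, a difference of -0.20 (adjusted p = 0.266). HCT116 read 12.32, 12.21 and 12.22 with calcitriol, against 11.97, 12.15 and 11.93 with ethanol, a difference of 0.23 (adjusted p = 0.359). In both lines the groups did not overlap. For LS174T the calcitriol arrays gave 11.39, 11.56 and 11.52 and the ethanol arrays 11.52, 11.65 and 11.50, with overlap. The F test among lines had an adjusted p of 0.102, and of 0.0314 with no background correction and 0.0293 with the trended, robust prior.

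NDUFA9, which sits where the matrix arm of complex I meets the membrane arm, was nearest to the threshold in LS174T. There it read 11.47, 11.56 and 11.71 with calcitriol, against 11.75, 11.87 and 11.83 with ethanol, a difference of -0.24 (adjusted p = 0.142). NDUFC2, an accessory subunit of the membrane arm, had 6.79, 6.75 and 6.82 in LS174T with calcitriol, against 7.26, 7.19 and 7.20 with ethanol (difference -0.43, adjusted p = 0.234). Neither gene's groups overlapped in LS174T. NDUFC2 passed when the LS174T arrays were fitted alone (adjusted p = 0.0316). NDUFS1, the largest iron-sulfur subunit of complex I and a dim probe here, had 5.71, 6.63 and 6.38 in LS174T with calcitriol, against 5.24, 5.88 and 5.82 with ethanol, which overlapped (difference 0.60, adjusted p = 0.247).

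In HCT116 the smallest adjusted p was 0.352, for NDUFS7, a core subunit that carries an iron-sulfur cluster next to the ubiquinone site. NDUFS7 had 9.85, 10.14 and 9.93 with calcitriol, against 10.24, 10.17 and 10.35 with ethanol, a difference of -0.28. UQCR11, the smallest subunit of complex III, had 7.48, 7.44 and 7.48 with calcitriol, against 7.89, 7.87 and 7.85 with ethanol (difference -0.40, adjusted p = 0.375). In both genes every calcitriol array lay below every ethanol array. SDHA, the catalytic subunit of complex II, gave differences of -0.05 in SW480, 0.10 in LS174T and -0.10 in HCT116.

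Separation of the arrays was no commoner among the members than among all genes. The 2 groups stood fully apart for 7 members in SW480, 4 above and 3 below ethanol, where 22.1% of all genes did (9.73% above and 12.3% below). They did so for 10 members in LS174T, 3 above and 7 below (23.5% of all genes, 10.2% above and 13.3% below), and for 9 in HCT116, 3 above and 6 below (15.5%, 7.99% above and 7.56% below). The differences had the same sign in all 3 lines for 9 members. COX7C, NDUFA10 and UQCRH were on the higher side (5.17% of members, against 9.95% of all genes). That holds for the chosen probes only. Second probes gave -0.15 for UQCRH in both SW480 and HCT116, and -0.04 for NDUFA10 in HCT116. NDUFA5, NDUFA6, NDUFB11, NDUFB2, UQCRC1 and UQCRHL were on the lower side (10.3% against 11.8%). UQCRH and UQCRHL are near-identical in sequence, so their probes may share signal and their values are uncertain.

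Cell line was the larger divider of these genes. Of the spread of a member over the 18 arrays, a median of 80.6% lay between lines, 0.591% between calcitriol and ethanol, 3.01% in their interaction and 14.2% among replicates. The medians over all genes were 84.4, 0.609, 2.35 and 9.76%. In ethanol the F test among lines called 44 of 58 members, against 79.7% of all genes. The range of a member's line means had a median of 0.46, against 0.83 over all genes, which were not matched to the members for brightness. The 14 members not called were NDUFA1, NDUFA2, NDUFA5, NDUFA8, NDUFB4, NDUFB5, NDUFB7, NDUFS1, NDUFV3, SDHD, UQCR10, UQCRHL, COX6B2 and COX7A2L. For UQCR10 a second probe differed by 0.63 in SW480 against LS174T and 0.53 against HCT116, beside 0.19 and 0.16 on the chosen one. For NDUFV3 the other probe, detected on 10 arrays, gave 0.78 in LS174T against HCT116, beside 0.01.

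In SW480 against LS174T, 35 members were called, 6 higher and 29 lower (63.8% of all genes, 31.9% higher and 32% lower). In SW480 against HCT116, 37 were called, 16 higher and 21 lower (64.4%; 32.8% and 31.6%). In LS174T against HCT116, 31 were called, 23 higher and 8 lower (60.4%; 31.1% and 29.3%). Thus 17.1% of the calls in SW480 against LS174T were on the higher side, 43.2% of those in SW480 against HCT116, and 74.2% of those in LS174T against HCT116. The median member differed by -0.26, -0.10 and 0.05 in these comparisons.

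The split between higher and lower calls moved with the scaling of the arrays. When the arrays were scaled by their medians instead of quantile-normalized, 11 members were higher and 21 lower in SW480 against LS174T (34.4% higher), 21 and 15 in SW480 against HCT116 (58.3%), and 22 and 4 in LS174T against HCT116 (84.6%). Under that scaling the median of all genes was 0.12, 0.20 and 0.08, and the median member lay at -0.09, 0.07 and 0.12. Set against the median of all genes, the median member was therefore lower in SW480 than in either other line under both scalings. The 3 comparisons share ethanol arrays in pairs and are not independent of each other.

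LS174T had the highest ethanol mean for 28 members (48.3%, against 33.1% of all genes), HCT116 for 17 and SW480 for 13 (22.4% against 35.8%). SW480 had the lowest for 31 (53.4% against 35.2%), HCT116 for 19 and LS174T for 8 (13.8% against 31.5%). These ranks were taken under quantile normalization only and needed no call. They include dim members such as COX6B2, and NDUFS6, which was detected on LS174T arrays alone and counts as highest in LS174T. The differences were mostly modest. Calls of at least 2-fold made up 6.90% of members in SW480 against LS174T, 5.17% in SW480 against HCT116 and 3.45% in LS174T against HCT116, beside 27.0, 25.6 and 21.8% of all genes. The members were mostly bright, and the part of brightness in these shares was not tested.

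**Figure D2:**
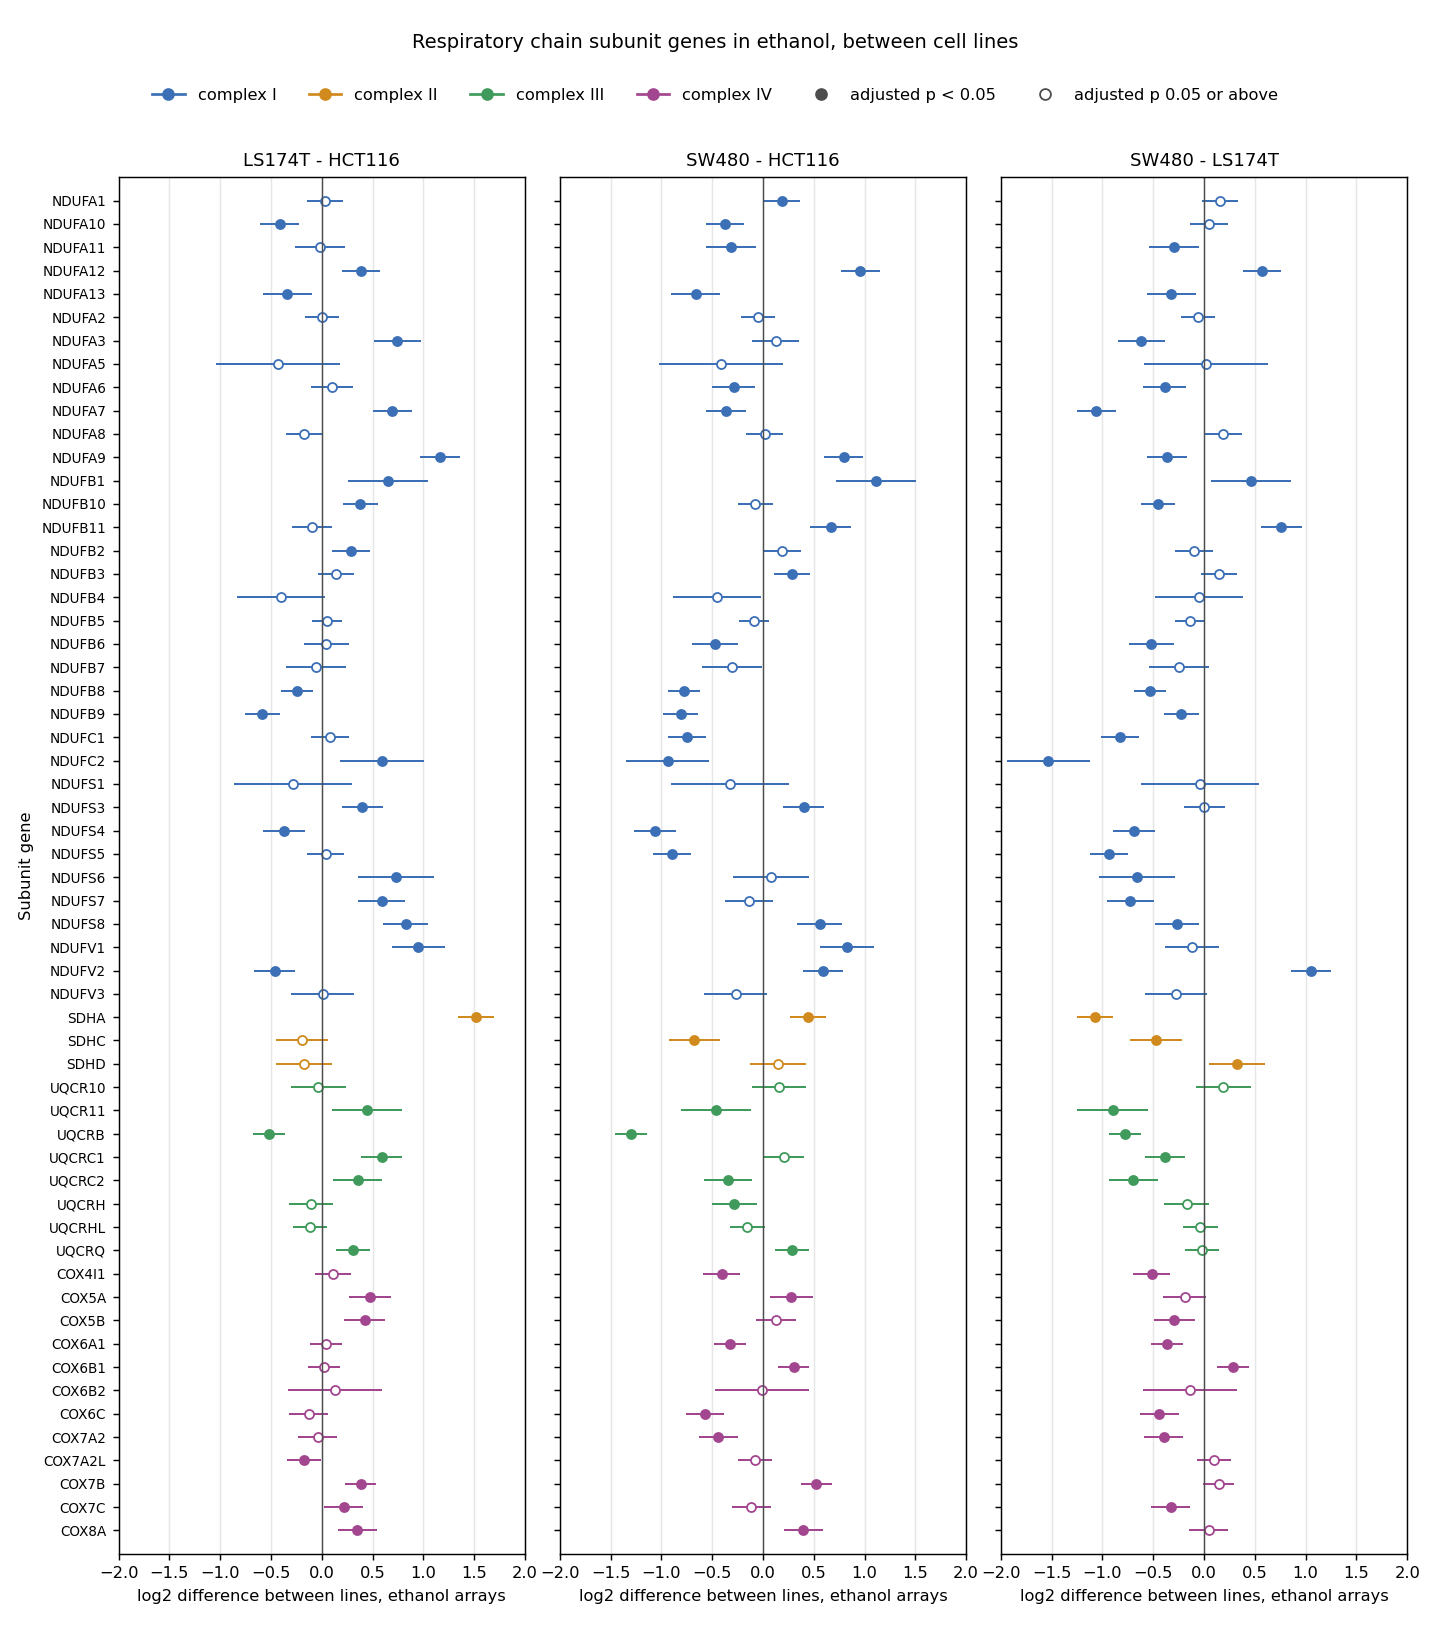
Log2 difference between cell lines on the ethanol arrays for each of the 58 subunit genes (rows, grouped and coloured by complex), with 95% confidence intervals, n = 3 arrays per line. Filled points have an adjusted p under 0.05; they number 31 in LS174T minus HCT116, 37 in SW480 minus HCT116 and 35 in SW480 minus LS174T, where 29 of them lie below 0.

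Within complex I, core and accessory subunits were counted apart, first in SW480 against HCT116. Of the 6 core subunits, 4 were higher in SW480 and 0 lower, while of the 29 accessory subunits 6 were higher and 12 lower, beside 32.8% of all genes higher and 31.6% lower. With median scaling these counts were 5 and 0 for the core subunits and 8 and 7 for the accessory ones. The other pairs did not repeat this split. In SW480 against LS174T, 1 core subunit was higher and 2 lower, and 3 accessory ones were higher and 15 lower (31.9% and 32% of all genes). In LS174T against HCT116 the counts were 4 and 1 for core and 9 and 5 for accessory subunits (31.1% and 29.3%). With median scaling these were 1 and 1 with 5 and 9, and 4 and 1 with 9 and 2. The 4 core subunits higher in SW480 than in HCT116 were NDUFV1 (0.83), NDUFV2 (0.59), NDUFS8 (0.56) and NDUFS3 (0.40). NDUFV1, which binds FMN and takes the electrons from NADH, had 11.35, 11.28 and 11.47 in SW480, 11.55, 11.37 and 11.54 in LS174T and 10.49, 10.61 and 10.51 in HCT116. HCT116 stood below both other lines in NDUFV1. NDUFS8, a core subunit with iron-sulfur clusters, had 12.60, 12.60 and 12.80 in SW480, 12.95, 12.93 and 12.92 in LS174T and 12.04, 12.14 and 12.15 in HCT116. Its order was LS174T, then SW480, then HCT116, and each step was called. No test set the core subunits against the accessory ones.

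NDUFV2 ran in another order. It read 12.52, 12.78 and 12.52 in SW480, 11.52, 11.65 and 11.50 in LS174T and 11.97, 12.15 and 11.93 in HCT116, and no 2 lines overlapped. SW480 exceeded LS174T by 1.05 (adjusted p = 2.15e-08), and LS174T was lower than HCT116 by a difference of -0.46 (adjusted p = 0.000268). NDUFV2 was the 1 core subunit called lower in LS174T than in HCT116. NDUFV1, its partner in the same module, differed there by 0.95 in the other direction.

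In LS174T against HCT116 the called member with the largest difference was SDHA of complex II. SDHA read 10.74, 10.69 and 10.81 in SW480, 11.86, 11.85 and 11.74 in LS174T and 10.27, 10.24 and 10.39 in HCT116. LS174T exceeded HCT116 by 1.52, or 2.86-fold (adjusted p = 3.98e-11), and SW480 was lower than LS174T (difference -1.07, adjusted p = 2.81e-09). A second SDHA probe gave 1.41 and -1.16 for the same comparisons. SDHC, a membrane anchor of complex II, did not follow SDHA: it read 9.49, 9.45 and 9.44 in SW480, 9.84, 9.94 and 10.05 in LS174T and 10.15, 10.04 and 10.23 in HCT116. Its probes disagreed, since LS174T minus HCT116 was -0.20 on the brighter probe and 0.68 on the second. SDHD, the other anchor, was higher in SW480 than in LS174T by 0.32 (adjusted p = 0.0349), a call that was lost without any 1 of the LS174T ethanol replicates or without SW480 ethanol replicate 1 or 2, with adjusted p up to 0.114.

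**Figure D3:**
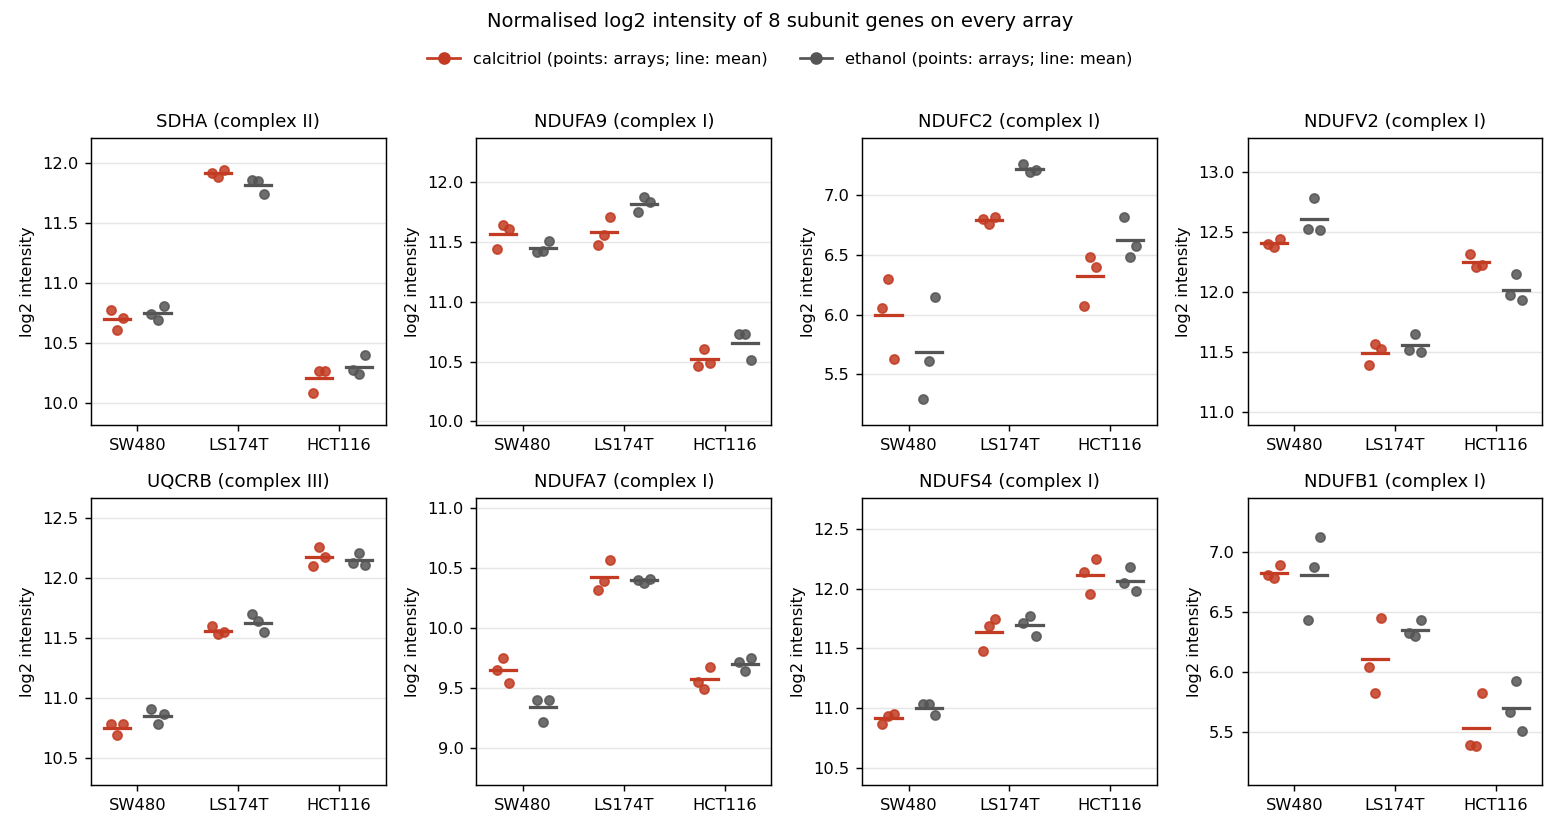
Quantile-normalized log2 intensity on each of the 18 arrays for SDHA, NDUFA9, NDUFC2, NDUFV2, UQCRB, NDUFA7, NDUFS4 and NDUFB1, with SW480, LS174T and HCT116 along the x axis and calcitriol to the left of ethanol within each line. Points are single arrays and short lines group means. In SDHA lines separate further than treatments, with LS174T between 11.74 and 11.94 and HCT116 between 10.08 and 10.39. With calcitriol, SW480 and HCT116 overlap in NDUFA7 and differ by only 0.16 in NDUFV2.

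Among accessory subunits of complex I, NDUFA9 and NDUFA7 separated LS174T from at least 1 other line. NDUFA9 had 11.42, 11.43 and 11.51 in SW480, 11.75, 11.87 and 11.83 in LS174T and 10.73, 10.73 and 10.51 in HCT116. LS174T minus HCT116 was 1.16 (2.24-fold, adjusted p = 6.22e-09) and SW480 minus HCT116 0.79 (adjusted p = 5.61e-07). NDUFA7 had 9.40, 9.21 and 9.40 in SW480, 10.40, 10.37 and 10.41 in LS174T and 9.71, 9.64 and 9.75 in HCT116. For NDUFA7 the order in ethanol was LS174T, HCT116, SW480, with SW480 minus LS174T at -1.06 (adjusted p = 1.41e-08).

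Several accessory subunits were lowest in SW480. NDUFS4, an accessory subunit of the matrix arm in which variants cause Leigh syndrome, read 11.04, 11.04 and 10.94 in SW480, 11.71, 11.77 and 11.60 in LS174T and 12.04, 12.18 and 11.98 in HCT116. SW480 was lower than HCT116 with a difference of -1.06 (adjusted p = 3.57e-08). NDUFS5, on the intermembrane-space side, had 12.53, 12.41 and 12.44 in SW480, 13.41, 13.42 and 13.37 in LS174T and 13.28, 13.38 and 13.41 in HCT116. LS174T and HCT116 overlapped in NDUFS5 and SW480 stood below both. NDUFC1, of the membrane arm, had 9.74, 9.71 and 9.82 in SW480, against 10.60, 10.65 and 10.50 in LS174T and 10.49, 10.61 and 10.42 in HCT116, the same arrangement. NDUFC2 had 5.29, 5.62 and 6.15 in SW480, 7.26, 7.19 and 7.20 in LS174T and 6.82, 6.48 and 6.58 in HCT116. SW480 minus LS174T was -1.53 for NDUFC2 (adjusted p = 2.16e-06), and on the calcitriol arrays -0.79.

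NDUFB8 and NDUFB9, both of the membrane arm, were lower in SW480 than in LS174T (-0.53 and -0.22) and than in HCT116 (-0.78 and -0.81), and lower in LS174T than in HCT116 (-0.25 and -0.59). NDUFA13, also known as GRIM-19, followed the same order, with -0.32, -0.66 and -0.34 for those comparisons. NDUFA10 was lower than HCT116 in SW480 (-0.37) and in LS174T (-0.42). With median scaling the LS174T against HCT116 calls of NDUFA10 (-0.23, adjusted p = 0.155) and NDUFA13 (-0.15, adjusted p = 0.229) were lost.

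Other accessory subunits were highest in SW480. NDUFA12, of the matrix arm, read 12.89, 12.90 and 12.93 in SW480, 12.32, 12.41 and 12.27 in LS174T and 11.98, 12.01 and 11.85 in HCT116, without overlap between lines. NDUFB11, of the membrane arm, had 12.59, 12.34 and 12.58 in SW480, 11.69, 11.77 and 11.78 in LS174T and 11.96, 11.86 and 11.69 in HCT116, and the LS174T and HCT116 arrays overlapped. NDUFB1 was dim, at 6.43, 6.88 and 7.13 in SW480, 6.32, 6.30 and 6.44 in LS174T and 5.66, 5.93 and 5.51 in HCT116. For NDUFB1, SW480 minus HCT116 was 1.12 (adjusted p = 4.24e-05). NDUFA3, of the membrane arm, was lower in SW480 than in LS174T (-0.62) and higher in LS174T than in HCT116 (0.74), as was the core subunit NDUFS7 (-0.73 and 0.59). NDUFS6 counts among the calls in both comparisons with LS174T, but it was not well above background on any SW480 or HCT116 ethanol array and on only 2 of 3 in LS174T, so no fold is given.

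In complex III the difference that stood out was UQCRB, a small subunit that contacts bound ubiquinone. It read 10.90, 10.78 and 10.86 in SW480, 11.69, 11.64 and 11.55 in LS174T and 12.12, 12.20 and 12.11 in HCT116, and the lines did not overlap. SW480 minus HCT116 was -1.30 (adjusted p = 8.9e-11), and a second probe gave -1.91. Across complex III, SW480 had 0 members higher and 4 lower than LS174T, and 1 higher and 4 lower than HCT116. LS174T against HCT116 had 4 higher and 1 lower. Of all genes, 31.9% were higher and 32% lower, 32.8% and 31.6%, and 31.1% and 29.3% in these 3 comparisons. With median scaling the complex III counts were 1 and 4, 2 and 3, and 4 and 1. UQCRC1, a core protein of complex III, had 11.53, 11.46 and 11.51 in SW480, 11.85, 12.03 and 11.77 in LS174T and 11.23, 11.37 and 11.28 in HCT116. LS174T lay above both other lines in UQCRC1, whereas in UQCRB of the same complex it lay between them. UQCRC2, the other core protein, and UQCR11 were called in every pair of lines in ethanol: SW480 minus LS174T was -0.70 and -0.90, SW480 minus HCT116 -0.35 and -0.46, and LS174T minus HCT116 0.35 and 0.44. UQCRH, the hinge protein that docks cytochrome c1 to cytochrome c, was lower in SW480 than in HCT116 on the brighter probe (-0.28) and on the second (-0.90).

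Complex IV members differed less, with line differences between -0.57 and 0.52. Except for the dim COX6B2 their probes were bright, and whether brightness limits such differences was not tested. In SW480 against HCT116 the second-brightest probe differed more than the brightest in UQCRH (-0.90 against -0.28), UQCRB (-1.91 against -1.30), UQCR10 (0.53 against 0.16) and NDUFB6 (-0.59 against -0.47). It also did so in NDUFA10 (-0.42 against -0.37) and SDHC (-0.71 against -0.67), and with the other sign in NDUFV3 (0.40 against -0.27). It differed less in SDHA (0.25 against 0.44) and NDUFB3 (0.13 against 0.28). The third UQCRB and UQCR10 probes gave -1.12 and 0.19. These genes belong to complexes other than IV. SW480 had 1 higher and 6 lower than LS174T, and 4 higher and 4 lower than HCT116, while LS174T had 5 higher and 1 lower than HCT116. With median scaling these counts were 3 and 5, 4 and 4, and 4 and 0, and the shares of all genes are those given for complex III (31.9% and 32%, 32.8% and 31.6%, 31.1% and 29.3%). COX4I1, the ubiquitous isoform of subunit IV, read 13.16, 12.93 and 13.07 in SW480, 13.49, 13.63 and 13.59 in LS174T and 13.43, 13.43 and 13.51 in HCT116. SW480 lay below both other lines in COX4I1, and in COX6C, which had 13.00, 13.14 and 13.03 in SW480, against 13.53, 13.51 and 13.44 in LS174T and 13.71, 13.46 and 13.71 in HCT116. COX7B ran the other way, with 12.76, 12.75 and 12.82 in SW480, 12.61, 12.69 and 12.61 in LS174T and 12.30, 12.22 and 12.23 in HCT116. COX5A and COX8A were higher than HCT116 in SW480 (0.28 and 0.40) and in LS174T (0.47 and 0.35). COX5B was lower in SW480 than in LS174T (-0.29) and higher in LS174T than in HCT116 (0.42). COX6B1 was higher in SW480 than in LS174T (0.28) and in HCT116 (0.30), while COX6A1 (-0.36 and -0.32) and COX7A2 (-0.40 and -0.44) were lower in both.

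The single complex IV member called lower in LS174T than in HCT116, COX7A2L, which is known for joining complexes III and IV into supercomplexes, differed by -0.18 and lost the call in 14 of the 18 fits that left out 1 array. With median scaling it differed by -0.10 (adjusted p = 0.477). On the calcitriol arrays, quantile-normalized, COX7A2L was called again, with a difference of -0.36 (adjusted p = 0.000468). COXFA4, outside the naming rule, was higher than HCT116 in SW480 (0.50) and in LS174T (0.39). Its paralog COXFA4L2, detected on 12 arrays, was lower in SW480 than in LS174T (-1.55).

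The calcitriol arrays give the same line comparisons on other samples. They called 32 members in SW480 against LS174T, 34 in SW480 against HCT116 and 31 in LS174T against HCT116. Of these, 28, 30 and 30 had been called in ethanol with the same sign, which is 87.5, 88.2 and 96.8% of the calcitriol calls and 80, 81.1 and 96.8% of the ethanol calls, and 0 had the opposite sign. Over all genes the shares were 87.1, 85.7 and 85.3% of the calcitriol calls and 85.5, 86.6 and 85.5% of the ethanol calls. The split was again 9 higher and 23 lower in SW480 against LS174T, 15 and 19 in SW480 against HCT116, and 22 and 9 in LS174T against HCT116. In SW480 against HCT116, 7 members called in ethanol were not called with calcitriol. NDUFA7 (0.07 with calcitriol, -0.36 in ethanol) and UQCR11 (0.06 with calcitriol, -0.46 in ethanol) differed there with the other sign, and NDUFV2 (0.16 with calcitriol, adjusted p = 0.140), NDUFC2 (-0.32, adjusted p = 0.149), COX5A (0.02), NDUFA1 (0.05) and NDUFA11 (-0.10) with the same sign. In SW480 against LS174T the 7 were COX6A1, NDUFA11, NDUFA13, NDUFA9, NDUFB9, NDUFS8 and SDHC, with differences of -0.21 to -0.01 with calcitriol, and in LS174T against HCT116 the 1 was COX7C.

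Members were set beside the other genes of their chromosome, with these examples chosen after their values were seen. COX6C, NDUFB9, a membrane-arm subunit of complex I, and UQCRB lie on chromosome 8, and all 3 were lower in SW480 than in HCT116, with a median of -0.81. Over the 483 genes tested on that chromosome the median was -0.37 and 53.4% were called lower. COX7B, NDUFA1 and NDUFB11 lie on chromosome X, and all 3 were higher in SW480 than in HCT116, with a median of 0.52, beside 0.35 over 512 genes, of which 50.8% were called higher. On chromosome 11, COX8A, NDUFC2, NDUFS3, NDUFS8 and NDUFV1 were higher in LS174T than in HCT116 and SDHD was not, with a median over the 6 of 0.50, beside 0.06 over 796 genes, of which 35.1% were called higher. Others went against their chromosome: in SW480 against HCT116, NDUFV2 on chromosome 18 differed by 0.59, where the median of 186 genes was -0.27 and 45.7% were called lower, and COX5A on chromosome 15 by 0.28, where the median of 427 genes was -0.20 and 43.6% were called lower. Copy number was not measured here, and its part in these differences was not tested.

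Genes that serve the chain without being subunits gave a few calls with calcitriol. Of 119 genes measured in 8 lists, 4 were called in SW480 (3.36%, against 2.46% of all genes), 3 in LS174T (2.52% against 6.05%) and 0 in HCT116, so the shares lay near or below those of all genes. In SW480 4 rose: CYCS, the cytochrome c that links complexes III and IV, ATP5MK, a membrane subunit of ATP synthase, ACAD9, a complex I assembly factor, and SDHAF1, which helps mature the iron-sulfur subunit of complex II. ATP5MK had 6.21, 6.23 and 6.07 in SW480 with calcitriol, against 5.75, 5.54 and 5.58 with ethanol, a difference of 0.55 (adjusted p = 0.00553). CYCS had 8.21, 8.41 and 8.47, against 7.94, 7.52 and 7.96 (difference 0.56, adjusted p = 0.0321). In both genes the lowest calcitriol array exceeded the highest ethanol array. ACAD9 differed by 0.45 (adjusted p = 0.0329) and SDHAF1 by 0.36 (adjusted p = 0.0235). None of these calls held in every setting. With only the SW480 arrays fitted all 4 were lost (adjusted p 0.0988 for ATP5MK, 0.164 for CYCS, 0.127 for ACAD9 and 0.161 for SDHAF1). ATP5MK was also lost with no background correction (difference 0.19, adjusted p = 0.131). With median scaling CYCS, ACAD9 and SDHAF1 no longer passed (adjusted p 0.170, 0.182 and 0.283), and each lost its call in 4 of the 18 fits that left out 1 array. ACAD9 was lost with the replicate block (adjusted p = 0.0516) and SDHAF1 with the mean of its probes (adjusted p = 0.479).

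By list, in SW480 1 of 19 complex I assembly factors rose, 1 of 4 of complex II, 0 of 6 of complex III, 0 of 24 of complex IV, 1 of 19 ATP synthase genes, 1 of 17 carrier and coenzyme Q genes, 0 of 15 biogenesis regulators and 0 of 15 citric acid cycle genes, and none fell. Their median differences were 0.15, 0.24, 0.19, 0.12, 0.05, -0.02, 0.05 and 0.05. In LS174T PPARGC1A, the coactivator PGC-1α that drives mitochondrial biogenesis, fell to 6.32, 6.38 and 6.16 with calcitriol, against 6.85, 6.74 and 7.15 with ethanol, a difference of -0.63 (adjusted p = 0.00155). TFB2M, a mitochondrial transcription factor, rose by 0.45 (adjusted p = 0.0173), and COQ10A, a coenzyme Q binding protein, was lower (difference -0.40, adjusted p = 0.0365). TFB2M lost its call in 3 and COQ10A in 5 of the fits that left out 1 array, and both with median scaling (adjusted p 0.0776 and 0.175). With only the LS174T arrays fitted, PPARGC1A (adjusted p = 0.0511) and COQ10A (adjusted p = 0.137) did not pass. In ethanol PPARGC1A was at least 2.83-fold higher in LS174T than in SW480 and at least 2.79-fold higher than in HCT116, where it was not detected, as it was not in SW480. Those bounds set the LS174T mean against the lowest signal of a detected probe. PPARGC1A belongs to the list of 15 biogenesis regulators, of which 6 were called higher and 4 lower in SW480 than in LS174T. Of all genes, 31.9% were higher and 32% lower there. PPARGC1B (2.28), POLG2 (1.29) and TFAM (1.13) were among the 6.

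**Figure D4:**
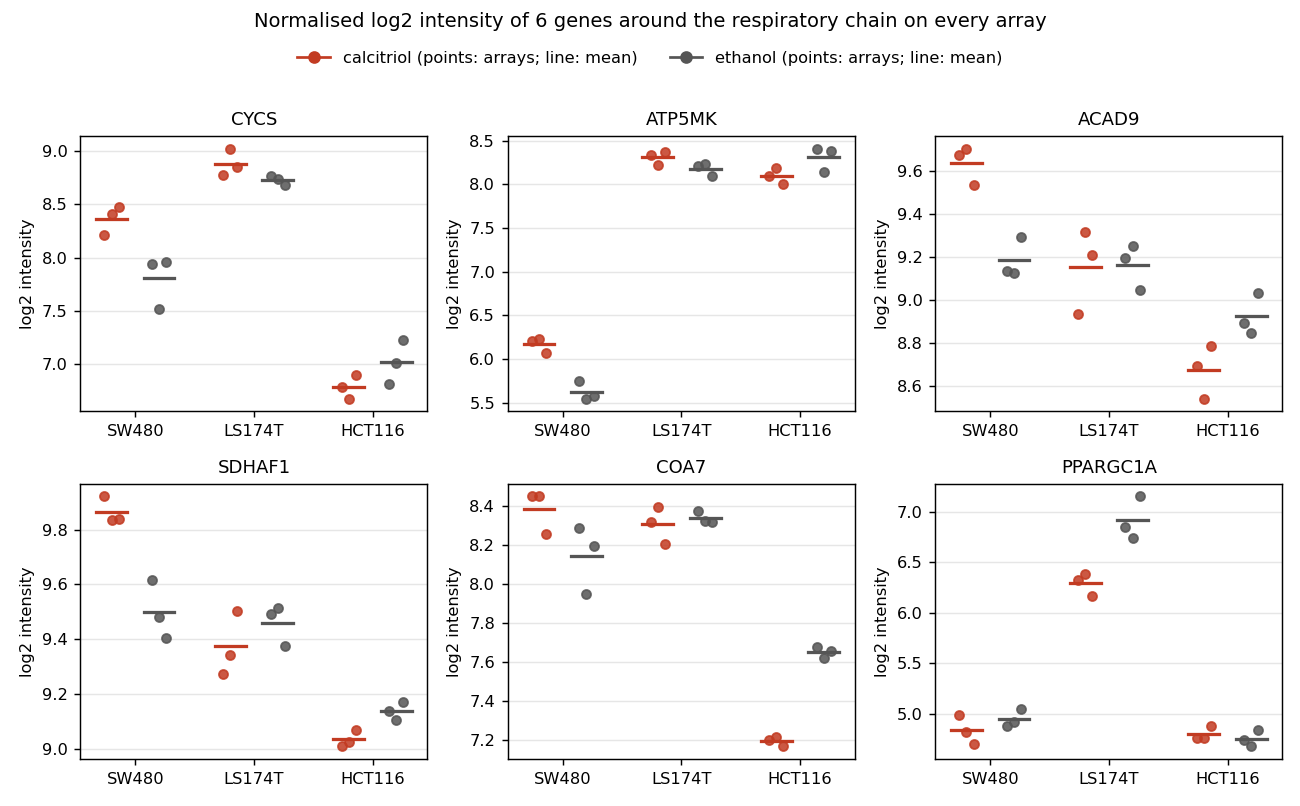
Quantile-normalized log2 intensity on each of the 18 arrays for CYCS, ATP5MK, ACAD9, SDHAF1, COA7 and PPARGC1A, with SW480, LS174T and HCT116 along the x axis and calcitriol to the left of ethanol within each line. The SW480 calcitriol points lie above the ethanol points in CYCS, ATP5MK, ACAD9 and SDHAF1, and the LS174T calcitriol points lie below in PPARGC1A.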

How the data were processed

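Illumina HT-12 arrays of RNA from SW480, LS174T and HCT116 with calcitriol or ethanol were read from the raw table, in which the authors deposited linear probe intensity values and a detection p-value per probe. A second table, deposited by the authors as log2 values, was used as an alternative, and its values differed from those computed here by a median of 0.000195. The submitters' processing notes name limma, with no version; sources used here do not give the image software. Here neqc in limma 3.58.1 (R 4.3.3) corrected background from the detection p-values, with an offset of 16, quantile-normalized and took log2. Of 47323 probes with an ID, 25586 were detected (p under 0.05) on at least 3 arrays; 887 rows without an ID were left out. Of the probes, 30113 carried 1 gene symbol in the platform annotation, 8 several and 17202 were not listed. The highest-mean probe stood for each of 13712 genes. lmFit and eBayes were fitted to 6 group means over all 18 arrays, with Benjamini-Hochberg adjustment over all genes and a threshold of 0.05. The procedure was tested on simulated data. Members and lists were chosen with earlier results of these data known. Genes named are the members called for calcitriol, the 8 largest rises and falls per pair of lines whose arrays do not overlap, the 5 smallest p in each F test, catalytic and isoform subunits whatever their values, and at most 4 called genes per related list; others with values (the smallest p per line, the motif and chromosome examples) were chosen after their values were seen. No pairing by replicate number was seen: over 9 pairs with the same number the correlation of deviations was -0.0896 to 0.00122. Such correlations cannot tell whether samples with the same number were grown or handled together. Arrays limit precision by their number.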

Additional observations from a re-analysis of the deposited data

Results flagged for a closer look

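The response to calcitriol differed among the 3 lines for 8 of 119 genes that serve the chain without being subunits (6.72%, near the 5.55% of all genes), by limma's F test with Benjamini-Hochberg adjustment. For ATP5MK, of ATP synthase (adjusted p = 0.00682), the difference of calcitriol minus ethanol was 0.55 in SW480, 0.14 in LS174T and -0.22 in HCT116. COA7, a complex IV assembly factor (adjusted p = 0.00982), gave 0.24, -0.03 and -0.46 in the same order, with 7.20, 7.22 and 7.17 in HCT116 with calcitriol, against 7.68, 7.62 and 7.66 with ethanol. The other assembly factors were ACAD9 of complex I (adjusted p = 0.0248; 0.45, -0.01 and -0.25), SDHAF1 of complex II (adjusted p = 0.0258; 0.36, -0.09 and -0.10) and BCS1L, which inserts the Rieske protein into complex III (adjusted p = 0.0271; 0.33, -0.09 and -0.35). CYCS (adjusted p = 0.0427) had 0.56, 0.15 and -0.23, and PPRC1, a coactivator related to PGC-1α (adjusted p = 0.0441), 0.42, 0.11 and -0.24. PPARGC1A (adjusted p = 0.0305) had -0.11, -0.63 and 0.05, but it was not detected in SW480 or HCT116 with ethanol. When arrays were scaled by their medians none of the 8 passed, with adjusted p of 0.0703 to 0.533. Of the 18 fits that left out 1 array, the call was lost in 15 for PPRC1, 14 for CYCS, 7 for PPARGC1A, 5 each for BCS1L and ACAD9, 4 for SDHAF1, and 0 for ATP5MK and COA7. With no background correction ATP5MK (adjusted p = 0.0501) and PPARGC1A (0.0913) did not pass either. No subunit gene showed such a difference at the threshold.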

How the results depend on the processing

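The count of subunit genes changed by calcitriol in SW480, 0 as reported, was 1 with no background correction, 1 with probes detected on all 18 arrays, 1 with the trended, robust variance prior (NDUFA7 each time) and 2 with the mean of all passing probes per gene (NDUFV3 and UQCR10, adjusted p 0.0467 and 0.0407). The count whose response differed among lines, also 0, was 1 with no background correction, 1 with the mean of probes and 2 with the trended, robust prior. In LS174T the count was 1 where only the compared arrays were fitted (NDUFC2). Leaving out each array in turn gave 0 to 0 members changed by calcitriol in SW480, in LS174T, in HCT116 and on average, 0 to 1 whose response differed (NDUFC2 without SW480 ethanol replicate 3), 42 to 45 differing among lines, 30 to 36 in SW480 against LS174T, 34 to 39 in SW480 against HCT116 and 28 to 31 in LS174T against HCT116. With the replicate number as a block these counts were 0 for each calcitriol comparison and for the response, 43 among lines, 35, 36 and 30. The causes of these changes were not tested. In all, 70 single-gene results were followed. Of their values, 41 of 654 under other settings and 91 of 1260 under leaving out an array changed sides of the threshold. None of the 70 reversed in sign, though an F test carries no sign. NDUFA7 and UQCR11 in SW480 against HCT116, which changed sign on the calcitriol arrays, were not among the 70. Median scaling ended the LS174T against HCT116 calls of NDUFA10 (adjusted p = 0.155), NDUFS4 (0.0995), NDUFA13 and COX7A2L. Without HCT116 ethanol replicate 1 NDUFA13 was not called (-0.24, adjusted p = 0.0804). The slide as a block was not run, since the files name no slide. Members near background (NDUFS6, COX6B2, NDUFB4) are limited by signal.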
